A study of Homo sapiens with 6 samples.

Results

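The genes described here are 35 genes of macroautophagy, chosen by name from knowledge of the pathway and not by a cut on their values. Earlier results of these data were known when they were chosen. Their sub-groups are the ULK complex, the VPS34 complex, the factors that supply lipid or bind its phosphoinositide, the conjugation system, the ATG8 family and the cargo receptors. Of these 35 genes, 34 had a row in the deposited table of 28847 genes, and ULK2 was not analysed here. Polyadenylated RNA was measured in 3 libraries of THP-1 cells treated with recombinant human RBP4, a secreted protein that carries retinol in blood, and in 3 libraries of THP-1 cells alone, the control. All 6 libraries carry the label THP-1, a human monocytic leukaemia line. The series calls them M0 (unpolarized) macrophages, and neither a dose nor a time of treatment is labelled, and no genetic change is labelled in either group. Nothing in the labels says that libraries of a group came from separate cultures, so p-values measure only the spread between these libraries, which may be technical.

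Values are normalized reads: each library's reads per gene, divided by a factor for that library. The depth worked back from them was 15994483 to 16420517 reads in the RBP4 libraries and 15202000 to 16149118 reads in the control libraries. At this depth a count of 0 allows up to 3 reads, or between 2.83 and 3.21 normalized reads, for counting error only. The cells did not carry most markers of their label. Of 14 monocyte and macrophage markers analysed, 2 (CD33 and SPI1) reached 10 CPM (normalized reads scaled to an equal total) in all 6 libraries. CD14 and CD163, defining surface proteins of that lineage, were near 0 in both groups. CD14 was at 0 in all RBP4 libraries and at most 2.14 normalized reads in the control. ITGAM and LYZ were present, at 168 and 255 normalized reads with RBP4 and 104 and 182 in the control. Of 5 monocyte markers tested as described below, 3 (ITGAM, LYZ and SPI1) rose and 1 (CD33) fell, against 24.5% and 26.1% of all genes tested. The monocyte list summed to 120 to 129 CPM in the RBP4 libraries and 108 to 116 CPM in the control libraries. Of 15 erythroid markers, 14 reached 10 CPM in all 6 libraries, and they summed to 2510 to 2587 CPM in the RBP4 libraries and 2791 to 2797 CPM in the control libraries. Both sums moved with the group, and their part in the results below was not tested. The lower erythroid sum was not shared by the whole list. Of its 15 genes 6 rose and 5 fell, against 24.5% and 26.1% of all genes tested. TFRC alone averaged 7485 normalized reads with RBP4 and 14649 in the control. The groups are called by their labels here. In bulk RNA, fewer cells of a type and less RNA per cell cannot be told apart.

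Autophagy encloses cytoplasm in a double membrane that fuses with the lysosome. The ULK kinase complex starts the process, the VPS34 lipid kinase complex marks the site with phosphatidylinositol 3-phosphate, and ATG9, ATG2 and the WIPI proteins bring and feed the membrane. A ubiquitin-like conjugation system then couples proteins of the ATG8 family to the membrane, where cargo receptors bind them and link them to ubiquitinated material. In macrophages the pathway is known for clearing microbes and damaged organelles, and in red cell precursors for clearing mitochondria.

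Of the 34 genes, all of which passed the filter on low values, 13 rose in the RBP4 libraries, 7 fell and 14 did not pass the threshold (limma's moderated test, threshold of 0.05 on p-values adjusted by Benjamini-Hochberg over 15676 genes). The share past the threshold was 58.8%, against 50.6% of all genes tested and 57.9% of 4310 protein-coding genes that averaged 413 to 1414 normalized reads, the middle range of the autophagy genes, so as a set these genes were called about as often as other genes of their abundance. Raised genes made up 38.2%, against 24.5% of all genes tested and 23.8% of the protein-coding genes of like abundance. Lowered genes made up 20.6%, against 26.1% and 34.1%. The median log2 fold change was 0.024, beside -0.0021 over all genes tested and -0.044 over the genes of like abundance. With the libraries scaled to equal totals, 15 rose and 5 fell (75% raised among the calls, against 65% with the authors' size factors). The same scaling moved all genes that way: raised genes made up 61.7% of the calls over all genes, against 48.4% with the authors' size factors. The RBP4 and control values did not overlap for 21 of the 34 genes, against 56.2% of all genes tested: RBP4 was above for 14, against 27.3%, and below for 7, against 28.9%. Among the 4310 protein-coding genes of like abundance 2672 did not overlap, about the same share, with RBP4 above for 1079 and below for 1593. A change of at least 1.5-fold past the threshold was reached by 3 genes, WIPI1, SQSTM1 and WDR45, all raised, against 13.5% of all genes tested in either direction, 10% raised and 3.49% lowered. The 3 genes are 8.82% of the 34, and 3.9% of the protein-coding genes of like abundance reached that size in either direction, although WIPI1 and SQSTM1 themselves lie outside that range of abundance. In the authors' deposited table, an adjusted p under 0.05 was given to 16 of these 34 genes, against 20.6% of all its genes. Of these, 11 were raised, against 9.48% of all its genes, and 5 were lowered, against 11.1%, and each was called here in the same direction. Those shares are over all 28847 genes, of which 13171 did not pass the filter on low values used here. All 34 autophagy genes passed it, so the shares are not of like genes, and no excess can be read from them. The 4 genes called here alone were ATG13, VMP1, ATG4D and ATG5.

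**Figure D1:**
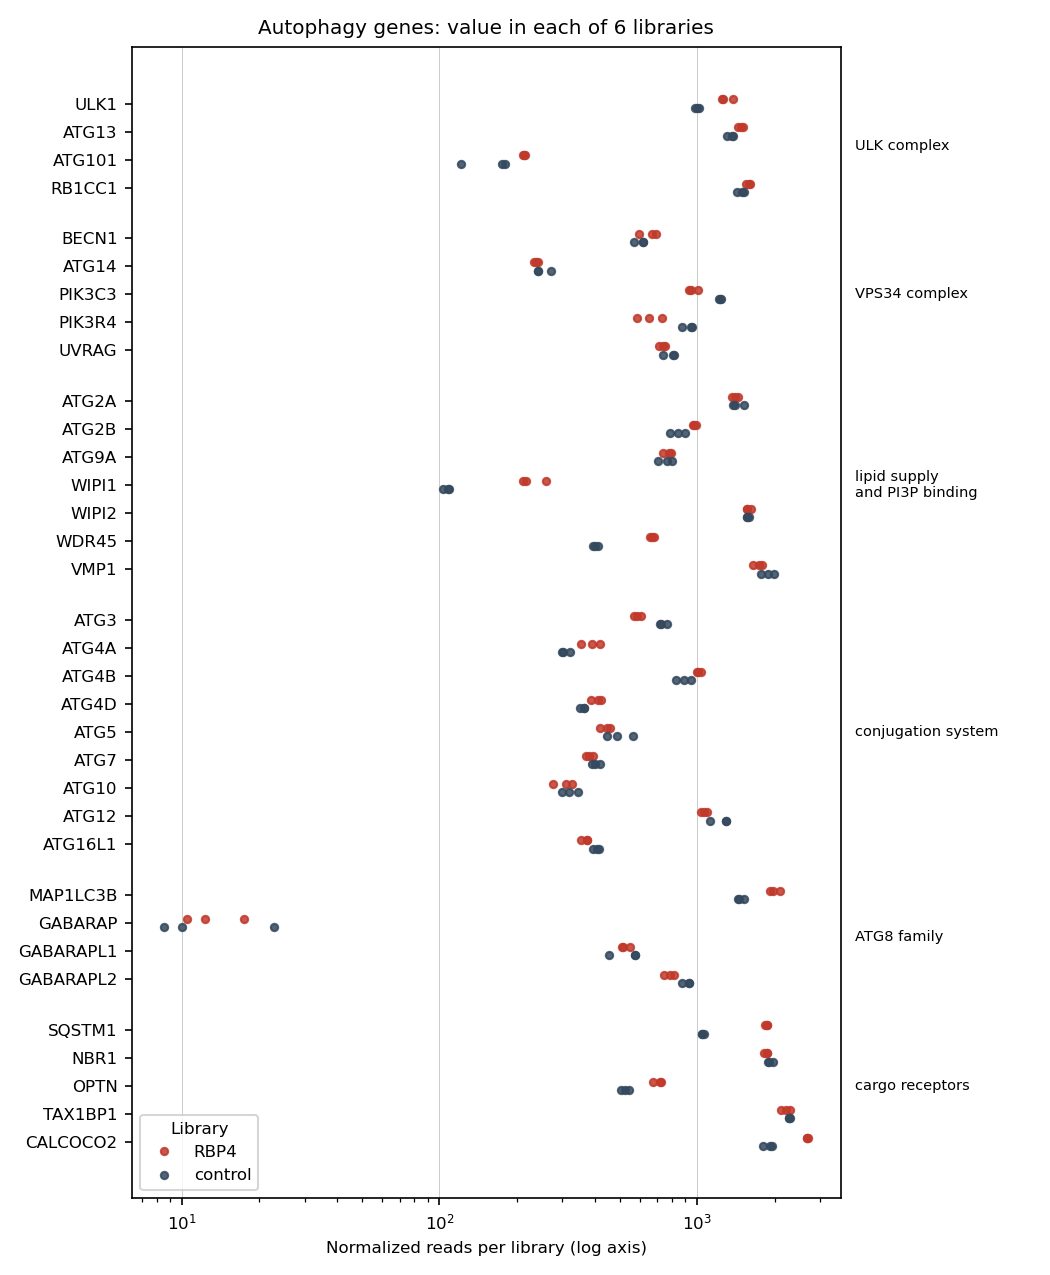
Normalized reads of the 34 autophagy genes (rows, by sub-group) in each RBP4 library (red) and each control library (dark), 1 point per library on a log axis. WIPI1, WDR45, SQSTM1, OPTN and CALCOCO2 had every RBP4 library above every control library, and GABARAP stood far below the other genes at 8.57 to 22.8 normalized reads.

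**Figure D2:**
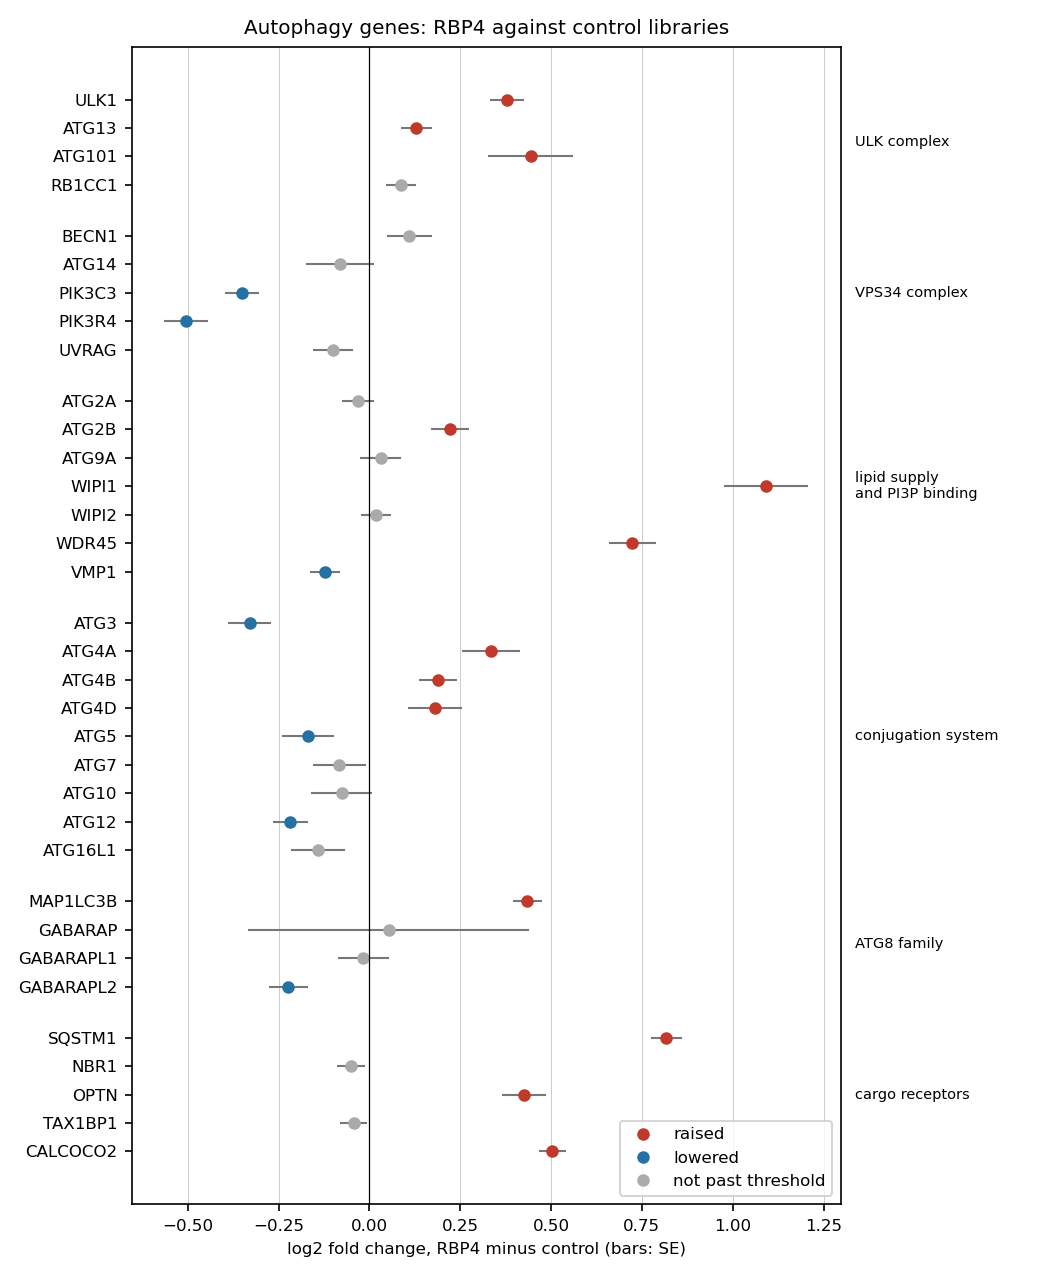
log2 fold change, RBP4 minus control, with its standard error, for the same 34 genes. Of these, 13 rose (red), 7 fell (blue) and 14 did not pass the threshold (grey), from -0.50 for PIK3R4 to 1.09 for WIPI1.

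In the ULK complex 3 of the 4 genes analysed rose and none fell, against 24.5% raised and 26.1% lowered of all genes tested. The median of the log2 fold changes was 0.25. ULK1, the serine/threonine kinase that starts autophagy when nutrients are short and that mTORC1 holds back (ENSG00000177169, chromosome 12, 131894651 to 131923167 on the plus strand of GRCh38), had 1262, 1375 and 1245 normalized reads in RBP4 libraries 1, 2 and 3, against 1012, 976 and 995 in control libraries 1, 2 and 3. All RBP4 libraries lay above all control libraries, and the mean was 1.30-fold higher (log2 fold change 0.38, SE 0.048, adjusted p = 3.8e-10). ATG101, which stabilizes ATG13, had 213, 211 and 216 normalized reads in the RBP4 libraries, against 175, 180 and 121 in the control libraries. It was 1.34-fold higher (log2 fold change 0.44, adjusted p = 0.0012), with 19.2% of its exonic bases shared with an antisense gene, AC025259.1, that was not analysed here, and control library 3 stood below the other control libraries. Without that library its log2 fold change was 0.26 (adjusted p = 0.0483), over a range of 2.6e-04 to 0.0483 in all alternatives. ATG13, the adaptor that carries the kinase, had 1501, 1483 and 1436 normalized reads with RBP4, against 1363, 1371 and 1307 in the control. This 1.09-fold difference (adjusted p = 0.0093) missed the threshold without RBP4 library 1 (adjusted p = 0.0518) or control library 3 (0.0511), over a range of 1.0e-04 to 0.0518. RB1CC1, the large scaffold also called FIP200, had 1574 ± 30.4 normalized reads with RBP4 and 1481 ± 52.3 in the control (mean ± SD, n = 3 each, adjusted p = 0.0743 in limma's test). It passed the threshold without control library 1 (0.0419), in edgeR's test on recovered reads (0.0374) and with equal totals (0.0014), over a range of 0.0014 to 0.293. Per kilobase of the deposited gene length, the level was 210.5 ± 4.78 for ATG13, 207 ± 3.99 for RB1CC1, 170 ± 9.27 for ULK1 and 66.6 ± 0.785 for ATG101 in the RBP4 libraries (n = 3). ATG13 and RB1CC1 differed by less than their spread in both groups. Here and below, that length counts all annotated exonic bases of a gene, not the transcript expressed. The order of genes per kilobase depends on it, and the SD does not include this.

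Of the 5 genes of the VPS34 complex none rose and 2 fell, against 24.5% raised and 26.1% lowered of all genes tested. Among the 4310 protein-coding genes of like abundance, 23.8% rose and 34.1% fell. The median log2 fold change was -0.10. The catalytic subunit and its regulatory partner fell, and the subunits that direct the complex did not pass the threshold. PIK3R4 (VPS15), the pseudokinase on which the lipid kinase is assembled (ENSG00000196455, chromosome 3, 130678935 to 130746829, minus strand), had 727, 584 and 650 normalized reads in the RBP4 libraries, against 873, 949 and 951 in the control libraries. It was 1.41-fold lower and had the most negative log2 fold change of the 34 genes (-0.50, SE 0.060, adjusted p = 7.0e-10). PIK3C3, the class III phosphatidylinositol 3-kinase VPS34 itself, had 933, 942 and 1011 normalized reads with RBP4, against 1227, 1217 and 1234 in the control, 1.27-fold lower (log2 fold change -0.35, adjusted p = 4.1e-09). The groups overlapped for neither gene. BECN1 (Beclin 1), the scaffold that BCL2 proteins bind, had 668, 592 and 690 normalized reads with RBP4, against 618, 619 and 568 in the control. The groups overlapped, and the log2 fold change of 0.11 did not pass (adjusted p = 0.135). It did pass without RBP4 library 2 (log2 fold change 0.18, adjusted p = 0.0278) and with equal totals (0.0141), over a range of 0.0141 to 0.466. Of its exonic bases 4.68% are shared with PSME3 on the opposite strand, which fell by 0.25 on the log2 scale (adjusted p = 5.6e-10 in limma's test), and reads there cannot be assigned without strand. ATG14, which sends the complex to the autophagosome, averaged 237 ± 3.56 normalized reads with RBP4 and 251 ± 17.4 in the control (SD, n = 3 each, adjusted p = 0.494 in limma's test). UVRAG, which replaces it in the endosomal form, averaged 733 ± 17.9 with RBP4 and 786 ± 45.1 in the control (adjusted p = 0.131 in limma's test). Without control library 1 UVRAG passed (log2 fold change -0.15, adjusted p = 0.0366), over a range of 0.0366 to 0.666.

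Among the genes that bind phosphatidylinositol 3-phosphate or supply membrane, 3 of 7 rose and 1 fell, against 24.5% and 26.1% of all genes tested. The largest and the third largest fold changes of all 34 genes were here. WIPI1, a WD-repeat protein recruited to the forming membrane (ENSG00000070540, chromosome 17, 68420948 to 68457513, minus strand), had 212, 260 and 217 normalized reads in the RBP4 libraries, against 103, 108 and 109 in the control libraries. The lowest RBP4 library was well above the highest control library, and the mean was 2.15-fold higher (log2 fold change 1.09, SE 0.117, adjusted p = 1.8e-12). WIPI1 shares 828 of its 3402 exonic bases with ARSG on the opposite strand, which itself averaged 72.3 normalized reads with RBP4 and 36.1 in the control (log2 fold change 0.99, adjusted p = 2.6e-05). The library kit does not mark strand, so part of one difference may be counted in the other. WIPI2, its relative that recruits ATG16L1, had 1563, 1566 and 1622 normalized reads with RBP4, against 1583, 1554 and 1557 in the control (log2 fold change 0.017, adjusted p = 0.752). The WIPI2 level per kilobase was above that of WIPI1 in both groups, at 176 ± 3.74 against 67.5 ± 7.70 in the RBP4 libraries and 174 ± 1.82 against 31.4 ± 0.870 in the control libraries (SD, n = 3 each).

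WDR45 (WIPI4), which joins the phosphoinositide to ATG2 (ENSG00000196998, chromosome X, 49071470 to 49101170, minus strand), had 670, 677 and 656 normalized reads with RBP4, against 414, 402 and 395 in the control. It was 1.65-fold higher without overlap (log2 fold change 0.72, SE 0.064, adjusted p = 1.4e-15). PRAF2, which lies on the same strand and shares 757 of the 5452 exonic bases of WDR45, averaged 24.8 normalized reads with RBP4 and 8.63 in the control. WDR45B (WIPI3), the close relative of WDR45 and not among the 35 genes, fell: 865 ± 12.0 normalized reads with RBP4, against 1247 ± 58.9 in the control (1.44-fold lower, adjusted p = 9.1e-15 in limma's test). ATG2B, a lipid transfer protein, had 966, 991 and 974 normalized reads with RBP4, against 893, 781 and 841 in the control. It was 1.17-fold higher with no overlap (log2 fold change 0.22, adjusted p = 2.6e-04 in limma's test). Its relative ATG2A (adjusted p = 0.568) and the scramblase ATG9A (adjusted p = 0.672), which shares 38.8% of its exonic bases with AC068946.2 on the same strand, did not pass. VMP1, a scramblase of the endoplasmic reticulum, had 1643, 1729 and 1789 normalized reads with RBP4, against 1770, 1874 and 1980 in the control. The groups overlapped, and the call (log2 fold change -0.12, adjusted p = 0.0104) was lost without RBP4 library 1 (0.11), without control library 3 (0.121), in DESeq2 (0.0560) and with equal totals (0.277), over a range of 0.0012 to 0.277.

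Low-abundance genes had higher log2 fold changes in general. Protein-coding genes of the abundance of WIPI1 (101 to 174 normalized reads) had a median of 0.19, and those of the abundance of SQSTM1 (1150 to 1478) a median of -0.093. Set against protein-coding genes of their own bin of abundance, 14 of the 34 autophagy genes lay above the middle 50%, 7 below it and 13 within it.

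In the conjugation system 3 of 9 genes rose, 3 fell and 3 missed the threshold. These are 33.3% raised and 33.3% lowered, against 24.5% and 26.1% of all genes tested. The median of the log2 fold changes was -0.083. The 3 that rose were the ATG4 genes among the 35, and the 3 that fell were ATG3, ATG12 and ATG5. ATG4 proteins are the cysteine proteases that trim ATG8 proteins before lipidation and release them afterwards. ATG4A had 420, 354 and 389 normalized reads with RBP4, against 322, 301 and 298 in the control (1.26-fold higher, adjusted p = 3.3e-04). ATG4B had 995, 1008 and 1035 with RBP4, against 947, 830 and 890 in the control (1.14-fold higher, adjusted p = 0.0015). For both genes every RBP4 library was above every control library. ATG4D had 408 ± 20.1 normalized reads with RBP4 and 359 ± 8.36 in the control (adjusted p = 0.0371 in limma's test). Its call was lost without RBP4 library 2 (0.145) or 3 (0.094), without control library 1 (0.0987) or 2 (0.057), in DESeq2 (0.0886) and without a filter on low values (0.0743), over a range of 0.0040 to 0.145. ATG4D shares 15% of its exonic bases with KRI1 on the opposite strand, which averaged 918 normalized reads with RBP4 and 797 in the control. ATG4C, another protease of this kind outside the 35 genes, averaged 528 normalized reads with RBP4 and 537 in the control and did not pass (adjusted p = 0.75).

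ATG3, the E2-like enzyme that attaches ATG8 proteins to lipid, had 582, 604 and 568 normalized reads with RBP4, against 718, 722 and 766 in the control. It was 1.26-fold lower with no overlap (log2 fold change -0.33, SE 0.059, adjusted p = 2.4e-06). ATG12, the ubiquitin-like protein joined to ATG5, had 1091, 1032 and 1063 normalized reads with RBP4, against 1123, 1295 and 1294 in the control (1.16-fold lower, adjusted p = 1.7e-04), and control library 1 stood nearest to the RBP4 libraries. AP3S1, which shares 4.25% of the exonic bases of ATG12 on the opposite strand, averaged 904 with RBP4 and 1147 in the control. ATG5, its partner, had 449, 458 and 421 with RBP4, against 490, 448 and 561 in the control. These values overlapped, and the call (log2 fold change -0.17, adjusted p = 0.0425) was lost in 9 of 16 alternatives: without RBP4 library 1 (0.0659) or 3 (0.17), without control library 1 (0.0545) or 3 (0.393), without a filter (0.0655), with equal totals (0.245), in edgeR (0.0504) and DESeq2 (0.138) and with a replicate block (0.0558), over a range of 0.0075 to 0.393. The E1-like ATG7 averaged 382 ± 13.3 normalized reads with RBP4 and 405 ± 15.4 in the control (adjusted p = 0.361 in limma's test). The E2-like ATG10 averaged 304 ± 25.3 with RBP4 and 321 ± 22.0 in the control (adjusted p = 0.470 in limma's test). The scaffold ATG16L1 averaged 367 ± 11.7 with RBP4 and 405 ± 10.2 in the control (SD, n = 3 each, adjusted p = 0.103 in limma's test). ATG16L1 was lower in every RBP4 library than in every control library. Per kilobase, ATG7 had the lowest level of the 9 genes in both groups, 43.2 ± 1.51 in the RBP4 libraries and 45.8 ± 1.75 in the control libraries. ATG7 shares 1596 of its 8833 exonic bases with VGLL4, and ATG10 shares 374 of 5449 with RPS23, a ribosomal protein gene with 5175 normalized reads with RBP4 and 5048 in the control, both on the opposite strand.

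In the ATG8 family, whose proteins are coupled to the membrane and hold cargo receptors there, MAP1LC3B rose and GABARAPL2 fell. These are 25% raised and 25% lowered of 4 genes, about the shares over all genes tested (24.5% and 26.1%). MAP1LC3B, which encodes LC3B, the usual marker of autophagosomes (ENSG00000140941, chromosome 16, 87383995 to 87404779, plus strand), had 2095, 1969 and 1913 normalized reads with RBP4, against 1444, 1456 and 1518 in the control. The groups were well apart, with a 1.35-fold higher mean (log2 fold change 0.44, SE 0.041, adjusted p = 1.4e-14). MAP1LC3B2, a near-identical copy that can exchange reads with it, averaged 78.9 ± 11.0 normalized reads with RBP4 and 46.0 ± 11.7 in the control, and both values are uncertain. GABARAPL2, also called GATE-16, had 787, 810 and 743 normalized reads with RBP4, against 927, 930 and 874 in the control (1.17-fold lower, adjusted p = 3.2e-04), without overlap. GABARAPL1 had 515, 510 and 550 with RBP4, against 575, 572 and 455 in the control, which overlapped (adjusted p = 0.865). Per kilobase, GABARAPL2 stood above MAP1LC3B in the control libraries (300.0 ± 10.4 against 277 ± 7.54) and below it in the RBP4 libraries (257 ± 11.2 against 375 ± 17.5). As a share of the 4 genes together, per kilobase, MAP1LC3B made up 48.9% ± 1.01 in the RBP4 libraries and 38.9% ± 2.28 in the control libraries, and GABARAPL2 33.5% ± 1.07 in the RBP4 libraries and 42.0% ± 0.242 in the control libraries (SD, n = 3 each). These shares depend on the value of GABARAP, which made up under 1% of the sum and may be too low because of an overlapping gene. The shares and the order of GABARAPL2 and MAP1LC3B also depend on the deposited gene lengths, whereas a change of 1 gene between the groups does not.

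GABARAP had 17.4, 12.3 and 10.5 normalized reads with RBP4, against 22.8, 10.1 and 8.57 in the control (adjusted p = 0.923). The annotation places AC120057.2, a protein-coding gene on the same strand, over 691 of the 2266 exonic bases of GABARAP, and AC120057.3 over 571 on the opposite strand. How the authors' counting treated reads that fall in 2 genes is not given in the sources used here, so this low value may not be the level of the transcript.

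**Figure D3:**
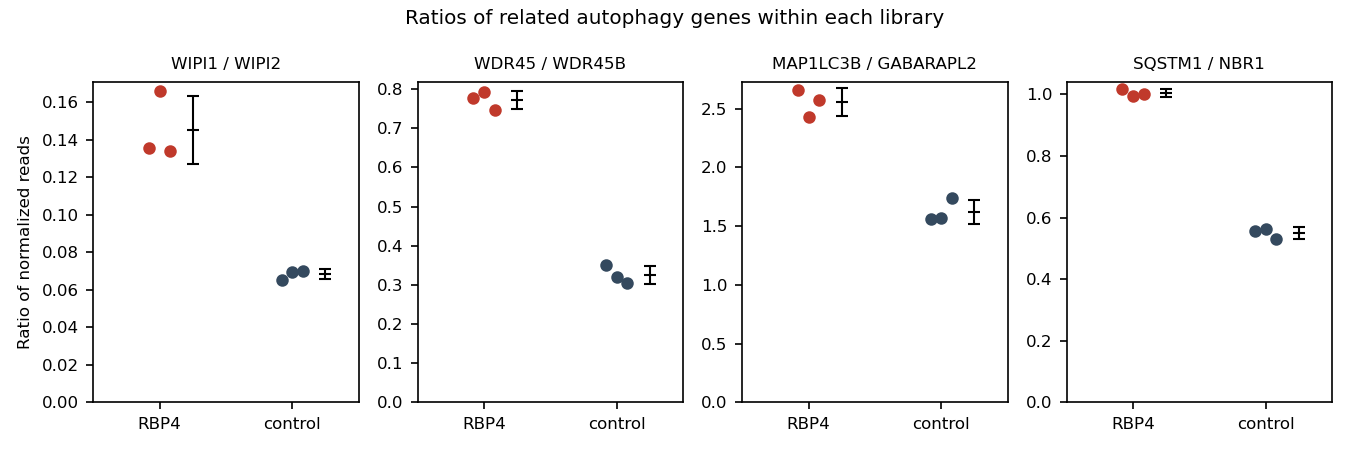
Ratio of the normalized reads of 4 pairs of related genes within each library, RBP4 libraries left and control libraries right, with the mean and SD (n = 3) beside the points. In every pair the 3 RBP4 libraries lie above the 3 control libraries, for example 2.43 to 2.66 with RBP4 against 1.56 to 1.74 in the control for MAP1LC3B over GABARAPL2. The pairs were chosen after the values had been seen.

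Ratios of related genes within a library do not depend on the scaling of the libraries, and 4 were computed, chosen after the values had been seen. WIPI1 over WIPI2 was 0.145 ± 0.0180 with RBP4 and 0.0683 ± 0.00256 in the control. WDR45 over WDR45B was 0.772 ± 0.0227 with RBP4 and 0.325 ± 0.0233 in the control. MAP1LC3B over GABARAPL2 was 2.56 ± 0.117 with RBP4 and 1.62 ± 0.102 in the control. SQSTM1 over NBR1 was 1.00 ± 0.0117 with RBP4 and 0.550 ± 0.0180 in the control (mean ± SD, n = 3 each). All 4 were higher in 3 of 3 RBP4 libraries than in any control library. The exact two-sided permutation test gave p = 0.1 for each, also after adjustment over the 4, which is the smallest p that 3 libraries against 3 allow. That outcome carries no weight, because the pairs were picked from these values. WDR45, MAP1LC3B and SQSTM1 were higher in every RBP4 library than in any control library, and WDR45B, GABARAPL2 and NBR1 were lower. Their ratios therefore could not overlap. For WIPI1 over WIPI2, WIPI1 was already apart and WIPI2 changed little. These are ratios of reads, not adjusted for gene length, so their size is not a ratio of transcripts.

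Among the 5 cargo receptors, SQSTM1, CALCOCO2 and OPTN rose, whereas NBR1 and TAX1BP1 did not pass. These are 60% raised and 0% lowered, against 24.5% and 26.1% of all genes tested. The sub-group had the highest median log2 fold change, 0.43. These proteins bind ubiquitin on cargo and ATG8 proteins on the membrane. SQSTM1 (p62), a receptor that also binds KEAP1 (ENSG00000161011, chromosome 5, 179806398 to 179838078, plus strand), had 1840, 1858 and 1867 normalized reads with RBP4, against 1045, 1067 and 1045 in the control. The libraries of each group lay close together and the groups far apart, with a 1.76-fold higher mean (log2 fold change 0.82, SE 0.043, adjusted p = 1.3e-26). It shares 1582 of its 7654 exonic bases with MRNIP on the opposite strand, which averaged 615 normalized reads with RBP4 and 523 in the control. CALCOCO2 (NDP52), known for binding invading bacteria and damaged mitochondria, had 2676, 2660 and 2699 normalized reads with RBP4, against 1917, 1806 and 1946 in the control, 1.42-fold higher (log2 fold change 0.50, adjusted p = 2.4e-19). OPTN (optineurin), a receptor that the kinase TBK1 activates, had 723, 674 and 717 with RBP4, against 508, 541 and 524 in the control, 1.34-fold higher (log2 fold change 0.43, adjusted p = 1.3e-08). For CALCOCO2 and OPTN every RBP4 library was above every control library.

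NBR1, which acts beside SQSTM1, had 1809, 1868 and 1868 normalized reads with RBP4, against 1879, 1893 and 1975 in the control (log2 fold change -0.052, adjusted p = 0.27). TAX1BP1, a relative of CALCOCO2, had 2106, 2215 and 2296 with RBP4, against 2268, 2264 and 2284 in the control (adjusted p = 0.336). The order of levels per kilobase therefore differed between the groups. In the RBP4 libraries CALCOCO2 was first (321 ± 2.38), followed by SQSTM1 (242 ± 1.82) and TAX1BP1 (241 ± 10.4), which did not differ beyond their spread, then NBR1 (220 ± 4.06) and OPTN (137 ± 5.20). In the control libraries TAX1BP1 (248 ± 1.17) came first, NBR1 (228 ± 6.13) and CALCOCO2 (227 ± 8.84) did not differ beyond their spread, and SQSTM1 (137 ± 1.61) and OPTN (102 ± 3.23) followed (SD, n = 3 each).

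A list of 12 of these genes that are known from mouse fibroblasts as targets of the stress factors ATF4 or CHOP held genes called in both directions. Of the 12, SQSTM1 and MAP1LC3B rose, ATG12, ATG3, GABARAPL2 and ATG5 fell, and 6 (ATG16L1, BECN1, NBR1, ATG7, ATG10 and GABARAP) did not pass. The share called, 50%, was near the 50.6% of all genes tested, with 16.7% raised, against 24.5%, and 33.3% lowered, against 26.1%. The median of the 12 log2 fold changes was -0.080, beside -0.0021 over all genes tested. The genes of both factors rose in the same libraries: ATF4 averaged 7562 ± 104 normalized reads with RBP4 and 5344 ± 73.6 in the control, and DDIT3, which encodes CHOP, 1918 ± 48.1 with RBP4 and 396 ± 24.1 in the control (SD, n = 3 each).

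Promoter windows of 300 bases (250 before and 50 after a RefSeq start, GRCh38.p14) were found for 31 of the 34 genes, with 39 windows in all because some genes have several starts. Each was searched on both strands for TGATGNAA, the core of the element that ATF4 and its partners bind, TCACGTG, the core of the element of the lysosomal factor TFEB, and TGACNNNGC, the core of the antioxidant response element. No window held matches of different motifs, so none overlapped. TGATGNAA was in 1 of the 39 windows (2.56%), against 3.62% of 35116 windows of all genes, TCACGTG in 2 (5.13%, against 3.71%) and TGACNNNGC in 3 (7.69%, against 13.3%). The matches were in WDR45 for the first, in ATG14 and ATG3 for the second and in ATG101, CALCOCO2 and MAP1LC3B for the third. The windows of the 3 genes with the largest fold changes, of MAP1LC3B and of the lowered ATG3 are printed 5′ to 3′ on the strand of the gene, with matches in capitals. WIPI1 is at chr17:68457447-68457746 (minus strand) and SQSTM1 at chr5:179820655-179820954 (plus strand, the most 3′ of its 3 starts), both with no match. WDR45 is at chrX:49079838-49080137 (minus strand, the start with a match of 2), MAP1LC3B at chr16:87392086-87392385 (plus strand) and ATG3 at chr3:112561913-112562212 (minus strand). The capitals mark 1 match each in WDR45 and MAP1LC3B, and 2 sites in ATG3, of which the second reads TCACGTG on 1 strand and, shifted by 1 base, on the other.
WIPI1: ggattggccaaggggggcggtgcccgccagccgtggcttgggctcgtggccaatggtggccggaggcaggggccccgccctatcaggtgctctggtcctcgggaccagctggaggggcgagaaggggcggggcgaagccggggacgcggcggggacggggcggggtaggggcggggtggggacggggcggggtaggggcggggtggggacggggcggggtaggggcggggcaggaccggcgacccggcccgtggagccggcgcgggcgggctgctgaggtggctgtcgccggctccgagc
SQSTM1: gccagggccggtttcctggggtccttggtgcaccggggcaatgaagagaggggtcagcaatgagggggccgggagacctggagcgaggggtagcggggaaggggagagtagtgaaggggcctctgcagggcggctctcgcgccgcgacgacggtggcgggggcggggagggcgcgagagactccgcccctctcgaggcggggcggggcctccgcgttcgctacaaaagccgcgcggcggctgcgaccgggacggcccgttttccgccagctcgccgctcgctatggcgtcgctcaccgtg
WDR45: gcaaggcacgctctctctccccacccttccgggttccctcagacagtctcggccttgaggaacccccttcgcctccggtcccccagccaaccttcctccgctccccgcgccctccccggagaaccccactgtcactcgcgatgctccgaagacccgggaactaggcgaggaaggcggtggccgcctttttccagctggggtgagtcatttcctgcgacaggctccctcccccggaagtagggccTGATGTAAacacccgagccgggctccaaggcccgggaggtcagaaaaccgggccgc
MAP1LC3B: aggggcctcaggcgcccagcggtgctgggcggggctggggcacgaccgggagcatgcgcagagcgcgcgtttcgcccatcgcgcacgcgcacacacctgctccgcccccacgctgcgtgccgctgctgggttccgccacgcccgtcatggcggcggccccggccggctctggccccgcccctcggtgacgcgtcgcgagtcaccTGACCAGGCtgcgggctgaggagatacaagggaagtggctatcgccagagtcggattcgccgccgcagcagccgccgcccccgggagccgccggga
ATG3: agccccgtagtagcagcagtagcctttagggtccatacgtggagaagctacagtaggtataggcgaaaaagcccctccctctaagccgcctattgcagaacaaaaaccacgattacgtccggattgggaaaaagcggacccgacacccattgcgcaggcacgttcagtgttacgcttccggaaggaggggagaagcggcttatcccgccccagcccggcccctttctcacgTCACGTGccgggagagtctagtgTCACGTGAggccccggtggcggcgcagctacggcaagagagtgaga

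Other genes of the pathway were counted from 4 lists that hold none of the 35 genes. Of their 70 genes, 65 were tested, 24 rose, 16 fell and 25 missed the threshold (36.9% raised and 24.6% lowered, against 24.5% and 26.1% of all genes tested), with a median log2 fold change of 0.046. With the libraries scaled to equal totals 27 rose and 10 fell, under the same shift of all genes (61.7% of all calls raised, against 48.4%). Among 11 tested genes of other core machinery 4 rose and 1, WDR45B, fell. TMEM41B, a scramblase that works with VMP1, rose 1.19-fold to 1432 ± 108 normalized reads with RBP4, against 1207 ± 66.9 in the control (adjusted p = 2.3e-05 in limma's test).

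Fusion of the autophagosome with the lysosome was represented by 14 genes, of which 4 rose and 6 fell. That is 28.6% raised and 42.9% lowered, against 24.5% and 26.1% of all genes tested. Among the 4310 protein-coding genes in the middle range of abundance of the 34 autophagy genes, 23.8% rose and 34.1% fell. TECPR1, a tethering protein, was 1.55-fold higher at 513 ± 29.9 normalized reads with RBP4 and 331 ± 34.4 in the control, and VPS18, a core subunit of the HOPS tether, was 1.54-fold higher at 303 ± 7.29 with RBP4 and 197 ± 8.65 in the control. VAMP8, the lysosomal SNARE, fell to 630 ± 42.4 with RBP4, against 811 ± 21.3 in the control, and RAB7A, the GTPase of late endosomes, to 2729 ± 43.2 with RBP4, against 3121 ± 154 in the control (SD, n = 3 each, adjusted p = 1.8e-07 and 3.1e-06 in limma's test).

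Receptors that select organelles rose in 7 and fell in 5 of 20 tested genes (35% and 25%, against 24.5% and 26.1% of all genes tested). BNIP3 and BNIP3L, mitochondrial receptors that hypoxia induces, fell to 1673 ± 26.3 and 1109 ± 50.2 normalized reads with RBP4, against 3547 ± 121 and 1744 ± 34.0 in the control, which is 2.12-fold and 1.57-fold lower (adjusted p = 4.7e-38 and 4.7e-21 in limma's test). BCL2L13, another mitochondrial receptor, was 1.36-fold higher at 2364 ± 79.1 with RBP4 and 1744 ± 41.8 in the control, and CCPG1, a receptor for the endoplasmic reticulum, 1.71-fold higher at 579 ± 35.3 with RBP4 and 339 ± 5.88 in the control. Of 20 tested upstream regulators 9 rose and 4 fell (45% and 20%, against 24.5% and 26.1% of all genes tested). ZKSCAN3, a repressor of autophagy genes, was 1.32-fold higher and PRKAB1, a subunit of the energy sensor AMPK, 1.11-fold higher. DAPK1, a kinase that acts on Beclin 1, was 1.48-fold lower and MTOR, the kinase that restrains ULK1, 1.15-fold lower. MTOR, at -0.20 on the log2 scale, lay within the middle 50% of protein-coding genes of its abundance, from -0.25 to -0.01. DAPK1, at -0.57, lay below that of its own abundance.

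**Figure D4:**
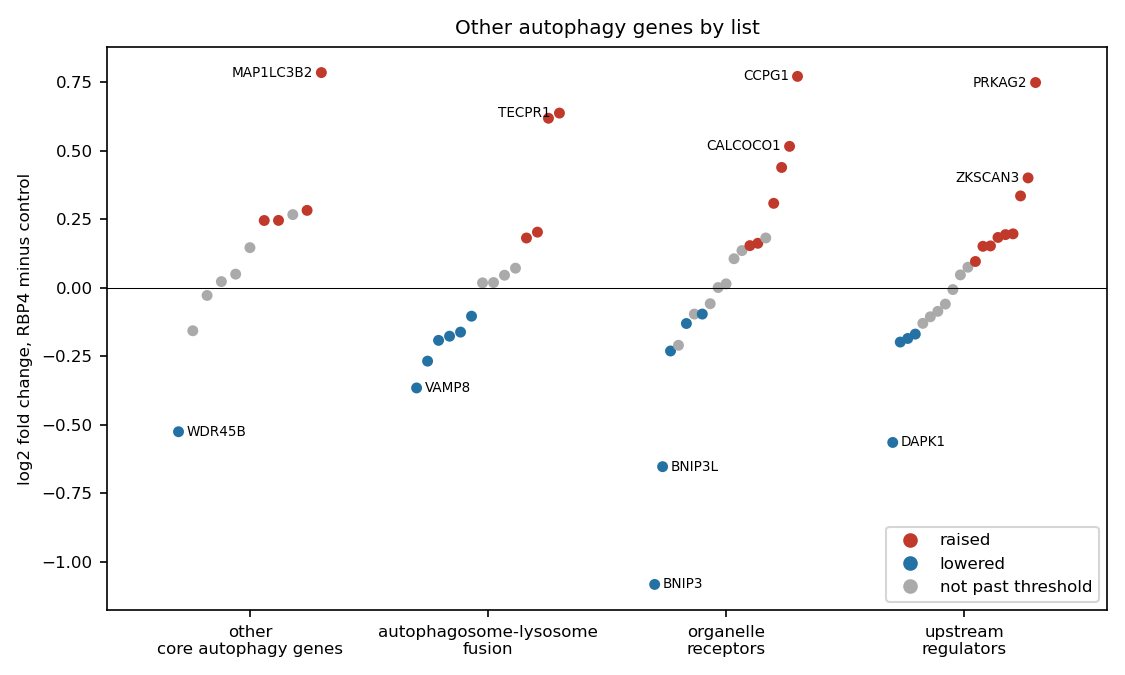
log2 fold change, RBP4 minus control, of tested genes of the 4 other autophagy lists, sorted within each list (red raised, blue lowered, grey not past the threshold), with 1 of the 65 tested genes not shown and the names of 11 genes at or near the ends of the lists. Of the genes shown, BNIP3 has the lowest value, -1.08, and MAP1LC3B2 the highest, 0.78.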

How the data were processed

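The table that the authors deposited holds, per the file headers, normalized signal for each gene in each library, group means, gene lengths, and their own log2 fold change, p-value and adjusted p-value. For the aligner and the counter, no name is given in the sources used here. All normalized values were whole multiples of 1 step per library within a tolerance of 0.01 reads (100% of values), as counts divided by size factors are. Coordinates of all 28847 genes equalled those of GENCODE release 29 (GRCh38). Per the labels' protocols, poly-T selection and a NEBNext Ultra kit were used.

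Genes that reached a value of 10 in 3 or more libraries were fitted on log2(value + 1) with limma's trended, robust moderated test (R 4.3.3, limma 3.58.1), RBP4 against control, two-sided, adjusted with Benjamini-Hochberg over 15676 genes at a threshold of 0.05. Fold changes on this scale understate those of low genes, and plain folds are ratios of means. edgeR 4.0.16 and DESeq2 1.42.0 were run on recovered reads as alternatives. The 35 genes and the lists were chosen with earlier results of these data known. All 35 are named, with values in every library for up to 3 called genes of each sub-group and further members, and from each other list up to 2 raised and 2 lowered genes with small p-values. ATG4C, PRKAG2, the further organelle receptors and the genes overlapping a member were named after their values were seen. Columns of per-sample values that went unused numbered 0. One gene of the other lists, counted in their totals, is not reported here.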

Additional observations from a re-analysis of the deposited data

How the results depend on the processing

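The counts over all genes, of raised and of lowered autophagy genes and of the other lists stayed within 1.5 times their reported values under the alternatives run, with 1 exception: with the libraries scaled to equal totals, lowered genes of the other lists numbered 10 instead of 16. Under it the median over all genes shifted by 0.068 on the log2 scale. Raised autophagy genes numbered 12 to 15 and lowered ones 5 to 7. The alternatives were pseudocounts of 0.5 and 5, no filter and a filter of 100, 2 other scalings (equal totals and TMM), edgeR, DESeq2, protein-coding genes only, a replicate block and leaving out each library. Without 1 library at a time, the count over all genes was 7044 to 7521, raised autophagy genes 12 to 13 and lowered ones 5 to 7, and raised and lowered genes of the other lists 21 to 23 and 14 to 17. Of the 34 autophagy genes, the only genes followed singly, none that was called changed direction. Among their results, 21 results lost and 6 gained the threshold, in ATG13, VMP1, ATG4D and ATG5 and in RB1CC1, UVRAG and BECN1, and 516 stayed on their side. The cause was not tested. Replicate numbers are shared between the groups, but same-numbered libraries did not deviate together (correlations of 0.0037, -0.0079 and -0.017), so the numbers do not pair them. With a replicate block 7829 genes were called, with 13 raised and 6 lowered autophagy genes. Among the 34 autophagy genes GABARAP had the lowest mean, 13.6 normalized reads, and the largest standard error of the log2 fold change, 0.39.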

Other observations

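The receptors for organelles were split by organelle after the values had been seen, and the difference between the resulting groups was not tested. Over all genes tested 24.5% rose and 26.1% fell. Of 7 tested receptors for the endoplasmic reticulum, 4 rose (CCPG1, RTN3, SEC62 and CALCOCO1), none fell and 3 missed the threshold. The median of their log2 fold changes was 0.18. RTN3 averaged 4703 ± 40.6 normalized reads with RBP4 and 3800.4 ± 71.7 in the control, and CALCOCO1 559 ± 23.5 with RBP4 and 391 ± 8.54 in the control (SD, n = 3 each). Of 6 receptors on mitochondria, 4 fell (BNIP3, BNIP3L, PHB2 and FKBP8), BCL2L13 rose and FUNDC1 did not pass, with a median of -0.18. PHB2 and FKBP8, at -0.13 and -0.23, lay within the middle 50% of protein-coding genes of their abundance, which ran from -0.29 to -0.04 on the log2 scale.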
